A study of Mus musculus with 62 samples.

Results

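The libraries described here test what the loss of Nlrp3 changed in brain immune cells of mice that carried no Alzheimer's disease transgene. They are 6 of the 62 RNA-seq libraries of the series, chosen by their labels: 3 libraries named NLRP3_12m_Mxo4 (genotype NLRP3-/-, 12 months of age; replicates 50, 51 and 55) and 3 libraries named WT_12m_Mxo4 (wild type, 12 months; replicates 60, 61 and 62). All 6 came from CD11b+ cells and carry the tag Mxo4, whose meaning is not given in the labels. Other 12-month libraries of the same genotypes lack the tag. The labels do not describe the Nlrp3 allele and do not say whether the libraries came from separate animals, so the spread behind the p-values, which is estimated between libraries of a group over the whole series, may be technical.

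NLRP3 is a sensor protein of the innate immune system. After priming and a second signal it assembles with the adaptor ASC (gene Pycard) and caspase-1 into the inflammasome, which cleaves the precursors of IL-1β and IL-18 and the pore-forming protein gasdermin D. In the brain it is best known in microglia, the resident macrophages, where its products depend on precursors whose transcription is driven through NF-kB.

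Total gene counts ranged from 11484943 to 21330948 per library. The cells carried microglial transcripts throughout: Tmem119 lay between 2277 and 2660 CPM (counts scaled by library size and composition), P2ry12 between 5362 and 6404, and the median log2 difference over 20 homeostatic microglial genes was 0.011. The genes used in common Alzheimer's disease transgenes did not separate the groups: App had 262, 215 and 223 against 241, 244 and 255 CPM, Prnp 25.1 to 34.5 against 19.4 to 33.6 CPM, and Thy1 at most 0.325 CPM. The 6 within-group pairs of libraries differed by a root mean square of 0.695 to 0.829 on the log2 scale, and the 9 between-group pairs by 0.706 to 0.855. Sex was not labelled. By Xist and Y-linked genes, wild-type replicates 60 and 62 and NLRP3 replicate 55 read as female and the other 3 as male. NLRP3 replicate 50 had Xist at 11.1 CPM beside its Y-linked transcripts. All tests below are edgeR quasi-likelihood F tests fitted over all 62 libraries, with Benjamini-Hochberg adjustment over all genes, and a gene is called at an adjusted p under 0.05.

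Few genes separated the genotypes. Of 19865 genes tested, 20 were called (0.101%), 11 higher (0.0554%) and 9 lower (0.0453%) in the NLRP3 libraries, while 1085 (5.46%) had an unadjusted p under 0.05. The count fell to 10 without wild-type replicate 60, to 11 without wild-type replicate 61 or NLRP3 replicate 51, and to 13 without NLRP3 replicate 50. The targeted gene itself led the list. Nlrp3 (chromosome 11, 59541568 to 59566956, plus strand, GRCm38) had 94.5, 113 and 106 CPM in wild-type replicates 60, 61 and 62. The NLRP3 replicates 50, 51 and 55 had 1.30, 0.741 and 0.346 CPM, from 20, 14 and 5 counts. Every NLRP3 library was thus far below every wild-type library, by a log2 difference of -6.88 ± 0.42 (SE; 118-fold, adjusted p = 1.53e-17). The deposited values are counts per gene, and which exons held the remaining reads was not analysed here.

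**Figure D1:**
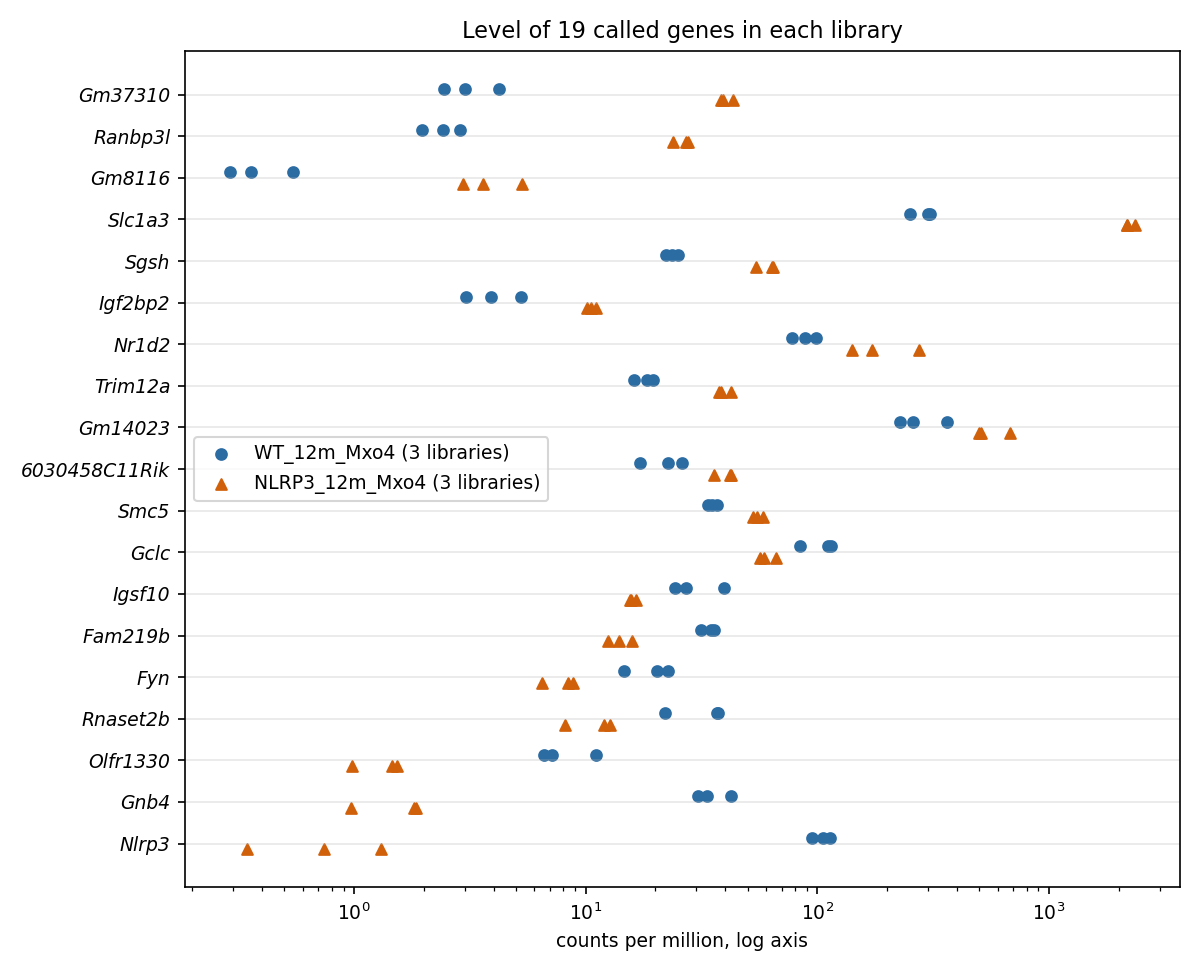
Level of 19 called genes in the 6 libraries, in CPM on a log axis; circles are the 3 WT_12m_Mxo4 libraries and triangles the 3 NLRP3_12m_Mxo4 libraries. Nlrp3 and Gnb4 lie at 30.5 CPM or more in the wild-type libraries and at 1.85 CPM or less in the NLRP3 libraries, and Slc1a3, Ranbp3l and Gm37310 lie higher in all 3 NLRP3 libraries.

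The largest rises among genes with a known product lay side by side on chromosome 15. Slc1a3 encodes the glutamate transporter GLAST (EAAT1), which takes up glutamate from the extracellular space and is best known in astrocytes. Ranbp3l encodes a Ran-binding protein involved in nuclear export. Slc1a3 lies on the minus strand (chromosome 15, 8634124 to 8710764) and Ranbp3l on the plus strand (8967949 to 9067335), 257 kb away, so that both start at the ends facing the interval and are transcribed away from it. The 250 bases before the start of each, from the RefSeq promoter table (GRCm38.p6), are shown because these neighbours moved together, with those of another called gene, Sgsh on chromosome 11, for comparison. Slc1a3 is chr15:8710808-8711057 on the minus strand, Ranbp3l is chr15:8967699-8967948 on the plus strand and Sgsh is chr11:119355511-119355760 on the minus strand. Capitals mark matches on either strand to 3 motifs. The GC box was searched as GGGCGG. For the TATA box the letters were TATAAA. The E-box was written as CACGTG.
Slc1a3: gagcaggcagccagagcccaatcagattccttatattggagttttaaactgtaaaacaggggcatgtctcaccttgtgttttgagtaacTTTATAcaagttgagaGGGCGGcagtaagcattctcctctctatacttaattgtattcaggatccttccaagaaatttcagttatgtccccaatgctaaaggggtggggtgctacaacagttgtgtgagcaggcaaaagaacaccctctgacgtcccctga
Ranbp3l: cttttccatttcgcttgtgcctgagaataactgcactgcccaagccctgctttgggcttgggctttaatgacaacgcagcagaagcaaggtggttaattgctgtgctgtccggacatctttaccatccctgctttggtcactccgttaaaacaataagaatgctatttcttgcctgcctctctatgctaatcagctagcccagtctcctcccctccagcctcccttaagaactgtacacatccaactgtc
Sgsh: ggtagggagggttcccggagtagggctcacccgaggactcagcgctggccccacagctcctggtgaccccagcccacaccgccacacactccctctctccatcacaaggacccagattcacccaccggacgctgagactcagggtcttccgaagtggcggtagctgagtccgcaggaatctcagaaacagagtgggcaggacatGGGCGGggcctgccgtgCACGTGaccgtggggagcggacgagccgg
The Slc1a3 window held 1 GC box match and 1 TATA box match, the latter as its reverse complement. The Ranbp3l window held none of the 3 motifs. The Sgsh window held 1 GC box match and 1 E-box match. Over the 32851 promoters of the table, windows of the same length matched the GC box in 32.7%, the TATA box in 12.4% and the E-box in 6.02%. These matches are descriptions of sequence.

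Slc1a3 had 299, 252 and 306 CPM in the wild-type libraries and 2339.5, 2160.2 and 2179 CPM in the NLRP3 libraries. The groups were far apart and each was tight, with a log2 difference of 2.95 ± 0.46 (7.72-fold, adjusted p = 3.11e-04). Within the libraries of second title number 1 and of number 2, each with 1 library in 1 of the groups, the mean log2 levels differed by 2.96 and 2.92. Fits to all libraries of one number called Slc1a3 in neither (adjusted p = 0.084 and 0.344). Ranbp3l went from 2.42, 1.96 and 2.87 CPM to 27.05, 23.8 and 27.6 CPM, a difference of 3.43 ± 0.57 (10.8-fold, adjusted p = 6.51e-04). Gm37310, an uncurated transcript inside Slc1a3 on the same strand, rose from a mean of 3.22 ± 0.90 (SD, n = 3) to 40.2 ± 2.7 CPM. Its reads and those of Slc1a3 cannot be fully told apart in gene counts. 13 genes were tested within 1 Mb of Slc1a3 besides itself, and Ranbp3l and Gm37310 were the called ones (0.101% of all genes were called). Of the 13, 5 did not overlap between groups, Ranbp3l and Gm37310 among them (38.5%, against 13.9% of all genes). Another called gene of chromosome 15, 6030458C11Rik, lay 4.11 Mb from the start of Slc1a3 and rose by 0.88 ± 0.19 (adjusted p = 0.038), a call that held in 1 of 6 fits with 1 library left out, the one without wild-type replicate 62 (adjusted p up to 0.475). It was also lost when sex (adjusted p = 0.061) or the first title number (0.076) was added to the fit.

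Because GLAST is an astrocyte protein, the other astrocyte markers were read beside it. The summed level of 12 astrocyte markers was 571 to 667 CPM in wild-type and 2531 to 2565 CPM in NLRP3 libraries. Of the 12, though, Slc1a3 was the only one that was called (0.101% of all genes) or did not overlap between groups (13.9% of all genes). The other 11 summed to 272 to 362 CPM and 226 to 376 CPM. Gfap, an astrocyte filament protein, had 3.50, 5.17 and 8.51 CPM in wild-type and 3.32, 5.35 and 3.46 CPM in NLRP3 libraries. Aqp4, the astrocyte water channel, had 23.6, 20.9 and 26.7 against 17.2, 29.3 and 21.5 CPM. Slc1a2, the other main glial glutamate transporter, had 37.1, 40.2 and 45.9 against 27.6, 44.5 and 36.3 CPM. All of these ranges overlapped. In bulk libraries, fewer cells of a type and less RNA per cell cannot be told apart.

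Smc5, a subunit of the SMC5/6 DNA repair complex, rose from 35.1, 33.7 and 36.9 to 52.9, 58.1 and 54.6 CPM (0.63 ± 0.11, adjusted p = 2.54e-03). Every NLRP3 library lay above every wild-type library. The call was lost without wild-type replicate 60 or 61 or NLRP3 replicate 51 (adjusted p up to 0.092).

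No other gene around Nlrp3 was called. Of 273 genes tested within 10 Mb of Nlrp3 on chromosome 11, 0 were called by edgeR, 2.56% had an unadjusted p under 0.05, against 5.46% of all genes, and 13.9% did not overlap between the groups, the same as over all genes (13.9%). The smallest adjusted p among them was 0.319, for Ccdc69 (1.78), which was low, with means of 0.458 CPM in wild-type and 1.64 CPM in NLRP3 libraries. Trim17, 0.587 Mb from Nlrp3, had a log2 difference of -1.89 (adjusted p = 0.603) and was also low, with means of 1.67 and 0.443 CPM.

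**Figure D2:**
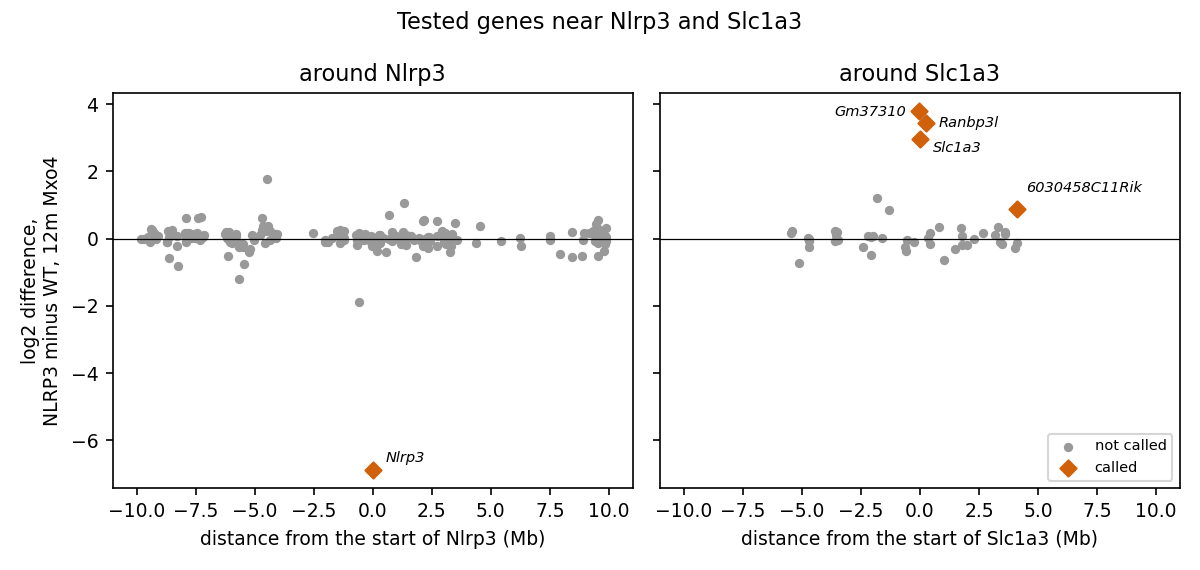
Log2 difference of tested genes whose mean reached 1 CPM in either group, against their distance in Mb from the start of Nlrp3 or Slc1a3; diamonds are called genes and grey points the rest. Nlrp3 is the called gene of its window, and Slc1a3 has Ranbp3l and Gm37310 beside it.

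Sgsh encodes sulfamidase, a lysosomal enzyme that degrades heparan sulfate. It rose from 24.9, 23.7 and 22.3 CPM to 64.4, 63.4 and 54.5 CPM (1.39 ± 0.27, adjusted p = 6.78e-03), a call lost without wild-type replicate 61 or 62 (adjusted p up to 0.069). Its end overlaps Card14, a scaffold protein of NF-kB signalling, on the opposite strand. Card14 had 4.48, 5.27 and 4.82 against 12.6, 13.6 and 12.6 CPM and missed the threshold (1.44 ± 0.37, adjusted p = 0.152). SMART-Seq does not mark strand, so reads of the overlap cannot be told apart. Of 24 other lysosomal genes 0 were called by edgeR, 2 had an unadjusted p under 0.05, and their median difference was -0.0057 against 0.0016 over all genes. Ctsl, a lysosomal protease, was the one with p under 0.05 that was higher, at 875, 910.2 and 1163 against 1647, 1258 and 1503 CPM (adjusted p = 0.879).

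3 called genes lay on chromosome 9, of 1165 tested there (0.258%, against 0.101% of all genes and 0.538% on chromosome 15). They were not all close together: Fam219b lay 20211 kb from the nearest other called gene. Fam219b fell from 35.9, 31.4 and 34.7 to 13.8, 15.8 and 12.5 CPM (-1.24 ± 0.20, adjusted p = 4.26e-04). Gclc, the catalytic subunit of the enzyme that limits glutathione synthesis, fell from 114, 111 and 84.1 to 56.4, 66.2 and 58.7 CPM (-0.76 ± 0.14, adjusted p = 4.36e-03). Its call was lost without wild-type replicate 60 or 61 or NLRP3 replicate 50 (adjusted p up to 0.117). Its partner subunit Gclm had 39.8, 30.1 and 32.2 against 37.97, 37.96 and 38.7 CPM, with ranges that overlapped. Gm8116, a pseudogene about 1026 kb from Gclc, rose from a mean of 0.398 ± 0.130 to 3.96 ± 1.23 CPM (SD, n = 3 each) and missed the threshold without wild-type replicate 60 (adjusted p = 0.054).

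The glutamine and glutamate list, which shares Slc1a3 and Gclc, held no further called gene. Of its 23 genes 1 was called higher (0.0554% of all genes) and 1 lower (0.0453% of all genes), and the median difference was -0.019. Glul, which makes glutamine, had 632, 735 and 811 against 742, 821 and 561 CPM. Slc1a5, a neutral amino acid transporter that carries glutamine, did not overlap between groups, with 9.32, 8.70 and 8.465 against 2.08, 3.60 and 5.32 CPM, and missed the threshold (-1.18 ± 0.33, adjusted p = 0.21). Got1, the cytosolic aspartate aminotransferase, was at 34.8, 35.3 and 38.9 against 46.7, 45.2 and 52.5 CPM (adjusted p = 0.936).

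The genes of the inflammasome other than Nlrp3 were not called. Of 21 tested genes of the NLRP3 inflammasome and IL-1 family, 1 was called lower, Nlrp3 itself (0.0453% of all genes), and 0 were called higher (0.0554%). Pycard had 125, 163 and 147 against 161, 169.7 and 152 CPM. Casp1 had 91.1, 68.3 and 78.6 against 74.8, 68.0 and 81.8 CPM. Gsdmd, the gene of gasdermin D, had 139, 156 and 158 against 155, 149.5 and 149.9 CPM. Nek7, a kinase that binds NLRP3 during assembly, had 334, 260.5 and 277 against 324, 313 and 289.9 CPM. All of these ranges overlapped.

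The precursors of IL-1 stood higher without passing the test. Il1b had 194, 237 and 288 CPM in wild-type and 517, 575 and 751 CPM in NLRP3 libraries. All 3 NLRP3 libraries lay above all wild-type libraries, with a log2 difference of 1.35 ± 0.37 (adjusted p = 0.21). Il1a had 813, 778 and 999 against 1544, 1459 and 2252 CPM (0.96 ± 0.26, adjusted p = 0.175). Gm14023, a long noncoding RNA gene that overlaps Il1a on the opposite strand, rose by 0.99 ± 0.22 (228, 258 and 361 to 497, 506 and 678 CPM, adjusted p = 0.041). That call held only without wild-type replicate 62 among the 6 fits with 1 library left out (adjusted p up to 0.475), and it was lost with TMMwsp in place of TMM scaling (adjusted p = 0.051). The reads of Gm14023 cannot be told apart from those of Il1a in the overlap. Il18 had 40.4, 48.8 and 49.04 against 55.4, 51.03 and 56.7 CPM (0.19 ± 0.18, adjusted p = 1), and Il1rn, the IL-1 receptor antagonist, had 5.02, 6.31 and 19.5 against 6.18, 3.65 and 10.1 CPM.

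Immediate-early genes, which are switched on within minutes of a stimulus and also while tissue is dissociated, lay higher in the NLRP3 libraries as a group. Of 23 such genes 0 were called by edgeR and 8 had an unadjusted p under 0.05, all of them higher. 15 had every NLRP3 library above every wild-type library, against 7.23% of all genes, and the median difference was 0.42 against 0.0016 over all genes. The median stayed between 0.33 and 0.56 when any 1 of the 6 libraries was left out, an alternative added after the values were seen. Egr3 had 7.71, 9.30 and 8.22 against 15.5, 14.2 and 27.9 CPM (1.31 ± 0.33, adjusted p = 0.105). Fos had 4267, 5540 and 5671 against 8785, 6723 and 6829.8 CPM, and replicate 50 was the highest library for Fos, Junb (2552 CPM) and Atf3 (4275 CPM). The heat shock genes Hspa1a and Hspa1b, in the same list, had -0.49 and -0.52 and overlapped.

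NF-kB cytokines and chemokines were higher in part of the list. Of 22 genes 0 were called by edgeR, 5 had an unadjusted p under 0.05 and were higher, and 1 was lower. 8 did not overlap and were higher (7.23% of all genes), and 2 did not overlap and were lower (6.63% of all genes). Nfkbiz, an NF-kB cofactor, had 684, 642 and 729.6 against 1307, 952 and 1283 CPM (0.80 ± 0.26, adjusted p = 0.393). Tnf had 167, 177 and 220.1 against 293.1, 293.4 and 400.3 CPM (adjusted p = 0.473), and the chemokine Ccl4 had 1066, 1265 and 1577 against 2348, 1798 and 2264 CPM (adjusted p = 0.603). Il6 lay lower, at 34.5, 28.4 and 38.97 against 23.9, 20.8 and 24.95 CPM (-0.65 ± 0.28, adjusted p = 0.77). The 10 monocyte markers summed to 522 to 645 CPM in wild-type and 803 to 927 CPM in NLRP3 libraries, but most of that was Nr4a1, itself an immediate-early gene. The other 9 summed to 84.8 to 106 CPM and 81.9 to 105 CPM and overlapped. Of all 10 markers, Nr4a1 and Plac8 lay higher without overlap (7.23% of all genes), and 1 other lay lower without overlap (6.63% of all genes). The defining Ccr2 had 23.1, 16.4 and 16.7 against 17.7, 21.2 and 21.9 CPM and overlapped.

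**Figure D3:**
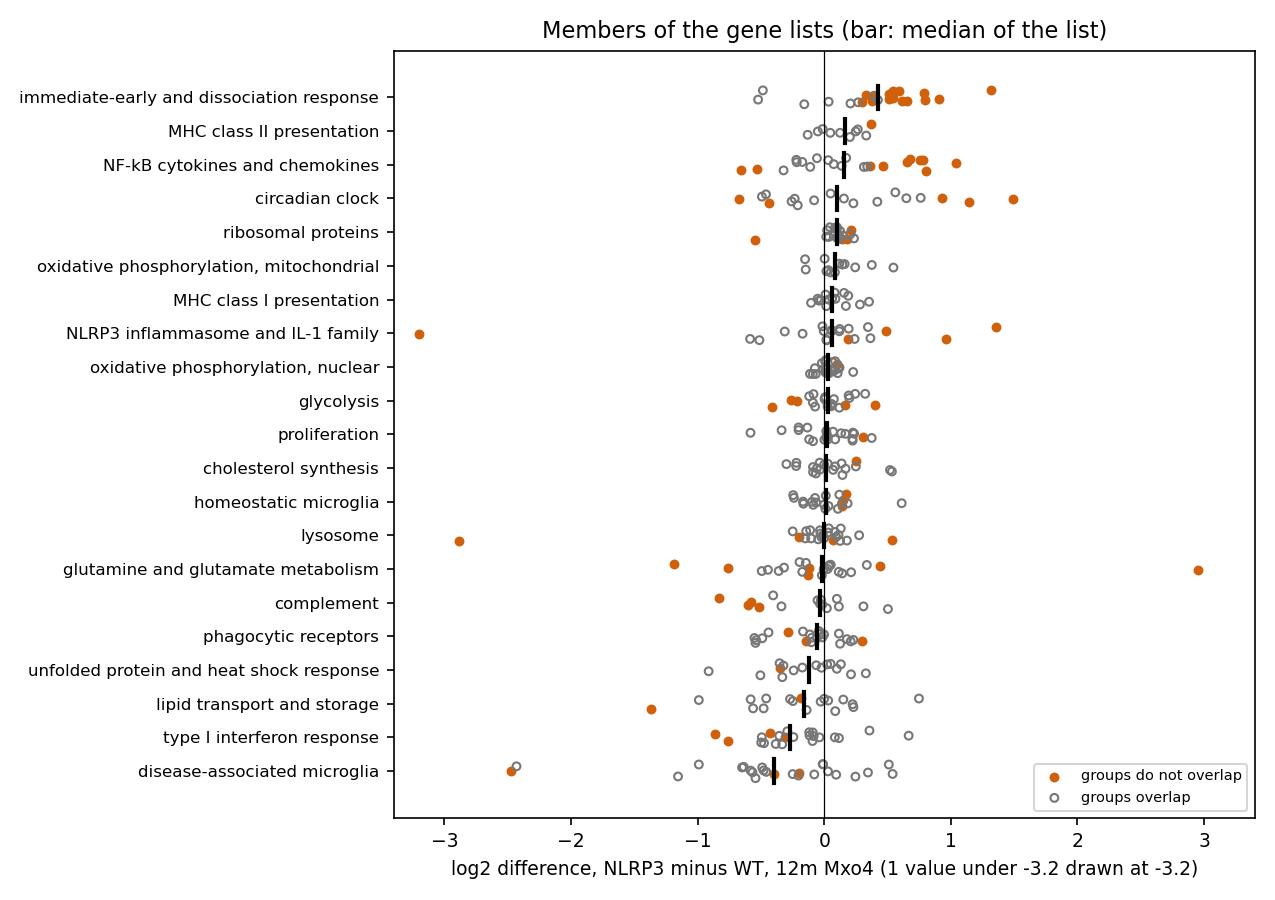
Log2 difference (NLRP3 minus WT) of each tested member of 21 gene lists; filled points have no overlap between the 3 and 3 libraries, open points overlap, and bars are list medians. The immediate-early list has the highest median (0.42) and the disease-associated microglia list the lowest (-0.40).

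The circadian clock list held 1 called gene of 18 (0.101% of all genes were called). Nr1d2 encodes REV-ERBβ, a repressor in the clock's feedback loop. It had 98.9, 88.1 and 77.5 CPM in wild-type and 172, 274 and 141 CPM in NLRP3 libraries (1.14 ± 0.22, adjusted p = 7.67e-03). Its paralog Nr1d1 (REV-ERBα) had 6.81, 13.1 and 9.68 against 22.2, 36.6 and 21.8 CPM (1.49 ± 0.35, adjusted p = 0.084). NLRP3 replicate 51 was the highest library for both, for Dbp (29.9 CPM, other libraries 8.10 to 14.3), for Per3 (35.2 CPM, others 15.3 to 17.3) and for Per2 (17.2 CPM, others 5.40 to 8.36), and was the lowest for Arntl (13.7 CPM, others 23.2 to 33.7). Without this library the Nr1d2 difference was 0.75 and missed the threshold (adjusted p = 0.512). The call was also lost without any 1 of the wild-type libraries and when the first title number was fitted too (1.01, adjusted p = 0.088). The wild-type libraries here were also low for Nr1d2: the other 27 Nlrp3-intact libraries ran from 89.8 to 141 CPM. The time of day of collection is not given in the sources used here.

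Genes of microglial activation states were not called. Of 25 genes of disease-associated microglia 0 were called by edgeR and 2 had an unadjusted p under 0.05, both lower, and the median was -0.40, which ranged from -0.54 to -0.052 when any 1 library was left out. Apoe had 1252, 1279 and 2661 against 948, 1261 and 1474 CPM and overlapped. Spp1 (osteopontin) had 62.5, 45.3 and 208 against 33.5, 19.6 and 102 CPM and overlapped. Wild-type replicate 62 was the highest library for both. Cst7, a cystatin of the same state, had 27.6, 11.5 and 33.96 against 20.7, 7.25 and 22.9 CPM. Gpnmb, a glycoprotein of lipid-laden macrophages, was low in all, at 4.48, 2.61 and 11.4 against 0.910, 1.32 and 0.898 CPM (adjusted p = 0.9). Of 22 type I interferon genes 0 were called by edgeR and 3 had an unadjusted p under 0.05, all lower, with a median of -0.27. Mx1, an antiviral GTPase, had 13.6, 12.1 and 11.5 against 5.72, 6.41 and 8.99 CPM (-0.86 ± 0.33, adjusted p = 0.601).

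Among 15 complement genes 0 were called by edgeR, and 4 had an unadjusted p under 0.05, all lower and without overlap (6.63% of all genes). The C5a receptors C5ar1 and C5ar2 were among them. C5ar2 had 61.03, 62.1 and 57.6 against 27.05, 39.7 and 32.97 CPM (-0.83 ± 0.20, adjusted p = 0.092), and C5ar1 had 162, 147 and 207 against 111, 97.9 and 128 CPM (adjusted p = 0.495). C1qb had 3160.2, 4355 and 3877 against 3042, 2412 and 2619.8 CPM, whereas C1qa overlapped between groups.

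1 homeostatic gene split the NLRP3 libraries. Cx3cr1, the receptor for neuronal fractalkine, had 2317, 2365 and 2481 CPM in wild-type libraries, and 4242, 2240.1 and 4556 CPM in NLRP3 replicates 50, 51 and 55 (0.61 ± 0.30, adjusted p = 0.9). The untagged WT_12m libraries ran from 4192 to 5397 CPM and the untagged NLRP3_12m libraries from 3780 to 4725 CPM. Replicates 50 and 55 lay in both of these ranges, and replicate 51 lay with the tagged wild type. The tagged APPPS1_NLRP3_12m_Mxo4 libraries were spread as well, from 1607 to 3488 CPM with a median of 1739 CPM.

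The remaining called genes differed in how the 6 libraries sat among the rest of the series. Gnb4, a G protein beta subunit, fell from 42.2, 33.2 and 30.5 to 1.82, 1.85 and 0.968 CPM (-4.44 ± 0.88, 21.7-fold lower, adjusted p = 7.67e-03). The other 27 intact libraries ran from 0.332 to 51.7 CPM, so the NLRP3 level was inside their range. Igf2bp2, an RNA-binding protein, rose from 3.05, 3.91 and 5.25 to 10.1, 10.6 and 11.1 CPM (1.36 ± 0.27, adjusted p = 7.67e-03), and the median of the other intact libraries was 7.06 CPM. Fyn, a Src-family kinase, fell from 20.3, 22.6 and 14.6 to 8.39, 6.46 and 8.78 CPM (-1.26 ± 0.25, adjusted p = 7.44e-03). For Fyn the median was 32.4 CPM in the other intact and 22.2 CPM in the other 28 NLRP3-deficient libraries. Igsf10, which overlaps Med12l on the opposite strand, fell by 0.97 (adjusted p = 0.031). Med12l also lay lower, at 144, 114 and 115 against 90.1, 85.7 and 94.2 CPM, and missed the threshold (-0.50, adjusted p = 0.225). Reads of the stretch that Igsf10 and Med12l share cannot be told apart. With 1 library left out, Gnb4 kept its call only without wild-type replicate 61 or 62 (adjusted p up to 0.113), and Igf2bp2 only without wild-type replicate 62 or NLRP3 replicate 50 (up to 0.236). Fyn lost it without wild-type replicate 60 or 61 or NLRP3 replicate 51 (up to 0.193), and Igsf10 kept it only without wild-type replicate 61 (up to 0.432). Igsf10 also lost it with sex as a further term (adjusted p = 0.061) and without the term for the second title number (0.097).

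3 called genes belong to families with close copies, and their counts are uncertain because the authors' counting could split or drop shared reads. Trim12a is one of a cluster of TRIM antiviral genes on chromosome 7. It rose from 19.5, 18.4 and 16.2 to 38.3, 37.5 and 42.5 CPM (1.13 ± 0.21, adjusted p = 3.98e-03). The wild-type libraries here were low for Trim12a: the other 27 intact libraries had a median of 32.7 CPM (18.4 to 41.9). In the other 28 NLRP3-deficient libraries the median was 37.9 CPM. Around the called genes, the share of genes tested within 1 Mb that did not overlap varied widely. It ran from 0% (Fyn and Nr1d2) to 40% (6030458C11Rik), with 38.5% around Slc1a3. Of 19 genes tested within 1 Mb of Trim12a, 0 were called and 7 did not overlap (36.8%, against 13.9% of all genes). Among these 7, Trim30d (1.02, adjusted p = 0.058) and Trim34a (0.82, adjusted p = 0.102) were higher, and Trim12c (-0.67, adjusted p = 0.292) and Trim34b (-4.80, adjusted p = 0.192) were lower. Rnaset2b, a ribonuclease gene, fell by 1.65 (SE 0.36, adjusted p = 0.039), while its copy Rnaset2a had 55.4, 35.3 and 43.7 against 94.6, 93.9 and 88.4 CPM (1.05, adjusted p = 0.066). Olfr1330, an olfactory receptor gene, fell from 11.1, 7.18 and 6.62 to 0.975, 1.54 and 1.45 CPM (adjusted p = 0.017). Trim12a lost its call without wild-type replicate 62 (adjusted p = 0.069). Rnaset2b lost it with sex as a further term (adjusted p = 0.061) and without the term for the second title number (0.075). With 1 library left out, Rnaset2b kept it only without wild-type replicate 60 (up to 0.313), and Olfr1330 only without wild-type replicate 61 or 62 (up to 0.214).

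The series holds 7 other comparisons of NLRP3-deficient with intact libraries, without the transgenes at 4, 6 and 12 months, and on the APPPS1 background at those ages and with the Mxo4 tag. They share no library with the 6 described here, though all were fitted together. In the untagged 12-month comparisons genotype and sex cannot be told apart: the 3 WT_12m and 5 APPPS1_12m libraries read as female, and the 4 NLRP3_12m and 4 APPPS1_NLRP3_12m libraries as male. All libraries of the 4-month groups read as female. The sexes were unevenly spread in the remaining comparisons too. WT_6m read as 5 female, and NLRP3_6m as 3 female and 1 male. APPPS1_6m read as 3 female with 1 unread, and APPPS1_NLRP3_6m as 2 female and 3 male. APPPS1_12m_Mxo4 read as 1 female and 3 male, and APPPS1_NLRP3_12m_Mxo4 as 2 female and 1 male. Slc1a3, Ranbp3l, Gm37310, Gm8116 and Sgsh were among those called in the same direction in all 7. The background shares of called genes were 0.398%, 0.488% and 1.59% without transgenes at 4, 6 and 12 months, 0.237%, 0.508% and 6.18% on the APPPS1 background at those ages, and 0.337% there with the tag. Across the 7, Slc1a3 ran from 2.14 to 3.19 on the log2 scale. Rnaset2b was called in 6 of them, Fam219b and 6030458C11Rik in 5 and Gm14023 in 4. Card14, which overlaps Sgsh, and Rnaset2a, the copy of Rnaset2b, were not called here. Each was called higher in 5 of the 7, and they ran from 1.29 to 2.18 and from 0.71 to 1.48. Smc5 and Gclc were called in 3, and Fyn, Gnb4, Igf2bp2, Olfr1330 and Igsf10 in 1. Trim12a and Nr1d2 were called in 0 of the 7. Trim12a ran from 0.030 to 0.62 and Nr1d2 from -0.26 to 0.45 there, both below their differences here. 15 of the 19 called genes besides Nlrp3 had the same sign in all 7.

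**Figure D4:**
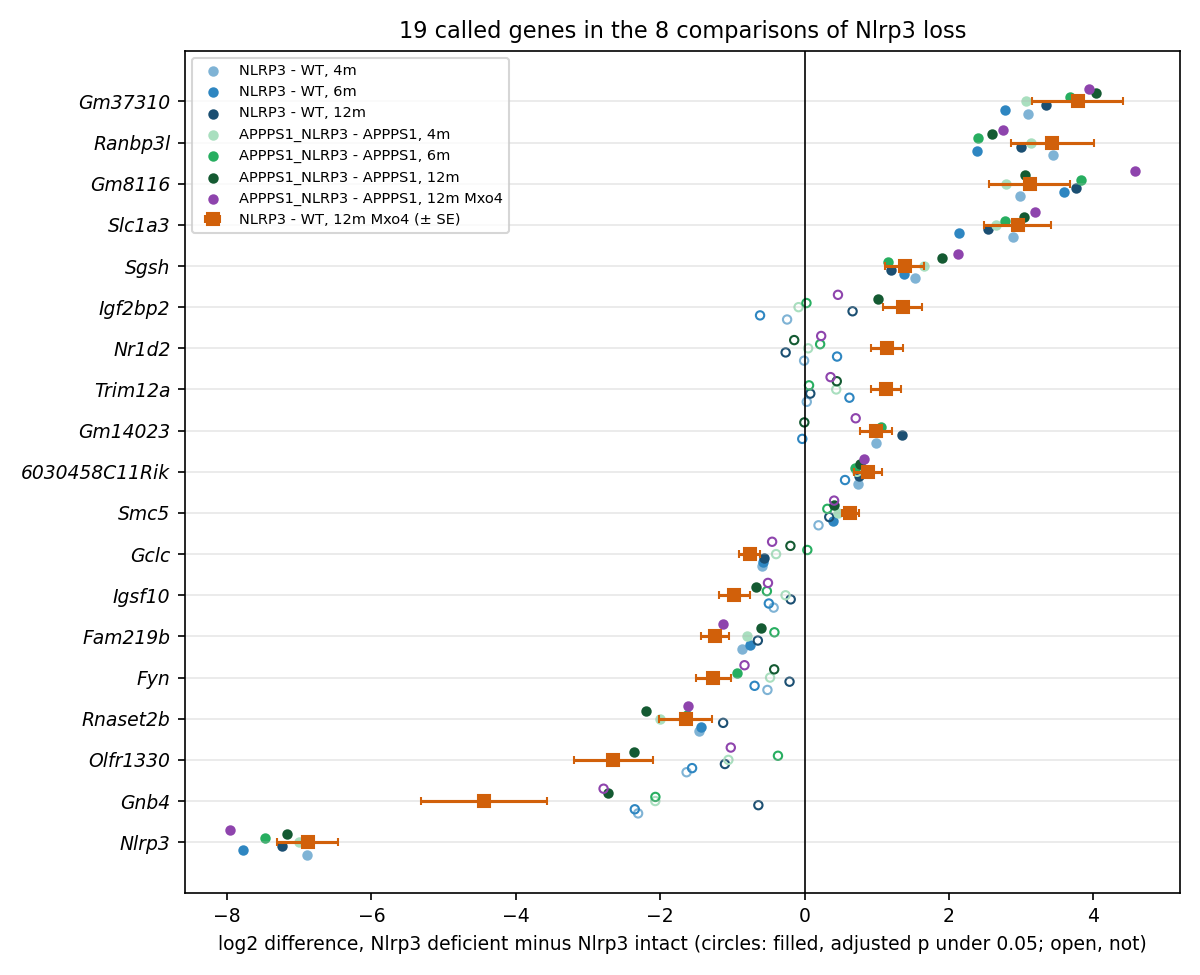
Log2 differences of 19 called genes; squares with bars (± SE) are the 12m Mxo4 comparison without transgenes, and circles are the 7 other comparisons of Nlrp3 loss, filled where called. Nlrp3, Slc1a3, Ranbp3l, Gm37310, Gm8116 and Sgsh are filled in all 7, while Nr1d2 and Trim12a are open in all.

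Read the other way, 34 genes besides Nlrp3 were called in 1 direction in at least 4 of the 7 (35 with Nlrp3, 0.176% of genes tested). Of the 34, 10 were called here in the same direction (0.101% of all genes were called here, in either direction). The other 24 were not called but had the same sign. Of these 24, 15 did not overlap in that direction (over all genes, 7.23% higher and 6.63% lower). Among these were Ptafr, the receptor for platelet-activating factor, at 107, 81.8 and 127 against 163, 187 and 168 CPM (0.74, adjusted p = 0.21), and Ndst1, a heparan sulfate modifying enzyme, at 61.9, 59.9 and 55.7 against 33.1, 34.5 and 38.2 CPM (-0.71, adjusted p = 0.102). Mlph, an adaptor for organelle transport, was near 0 here (-0.020).

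Slc1a3 was not high in every NLRP3-deficient library of the series. Over all 31 such libraries it ran from 202 to 2931 CPM: 24 lay at 2049.6 CPM or more, 5 between 1171 and 1420.1 CPM, and 2 at 202 and 342 CPM. The intact libraries ran from 192 to 459 CPM. The 2 lowest were APPPS1_NLRP3_12m replicate 43 and NLRP3_6m replicate 32, and Ranbp3l was at 2.41 and 2.55 CPM there, within the intact range of 1.48 to 6.00 CPM. Nlrp3 and Gm8116 did not overlap between the 30 intact and the 31 deficient libraries.

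**Figure D5:**
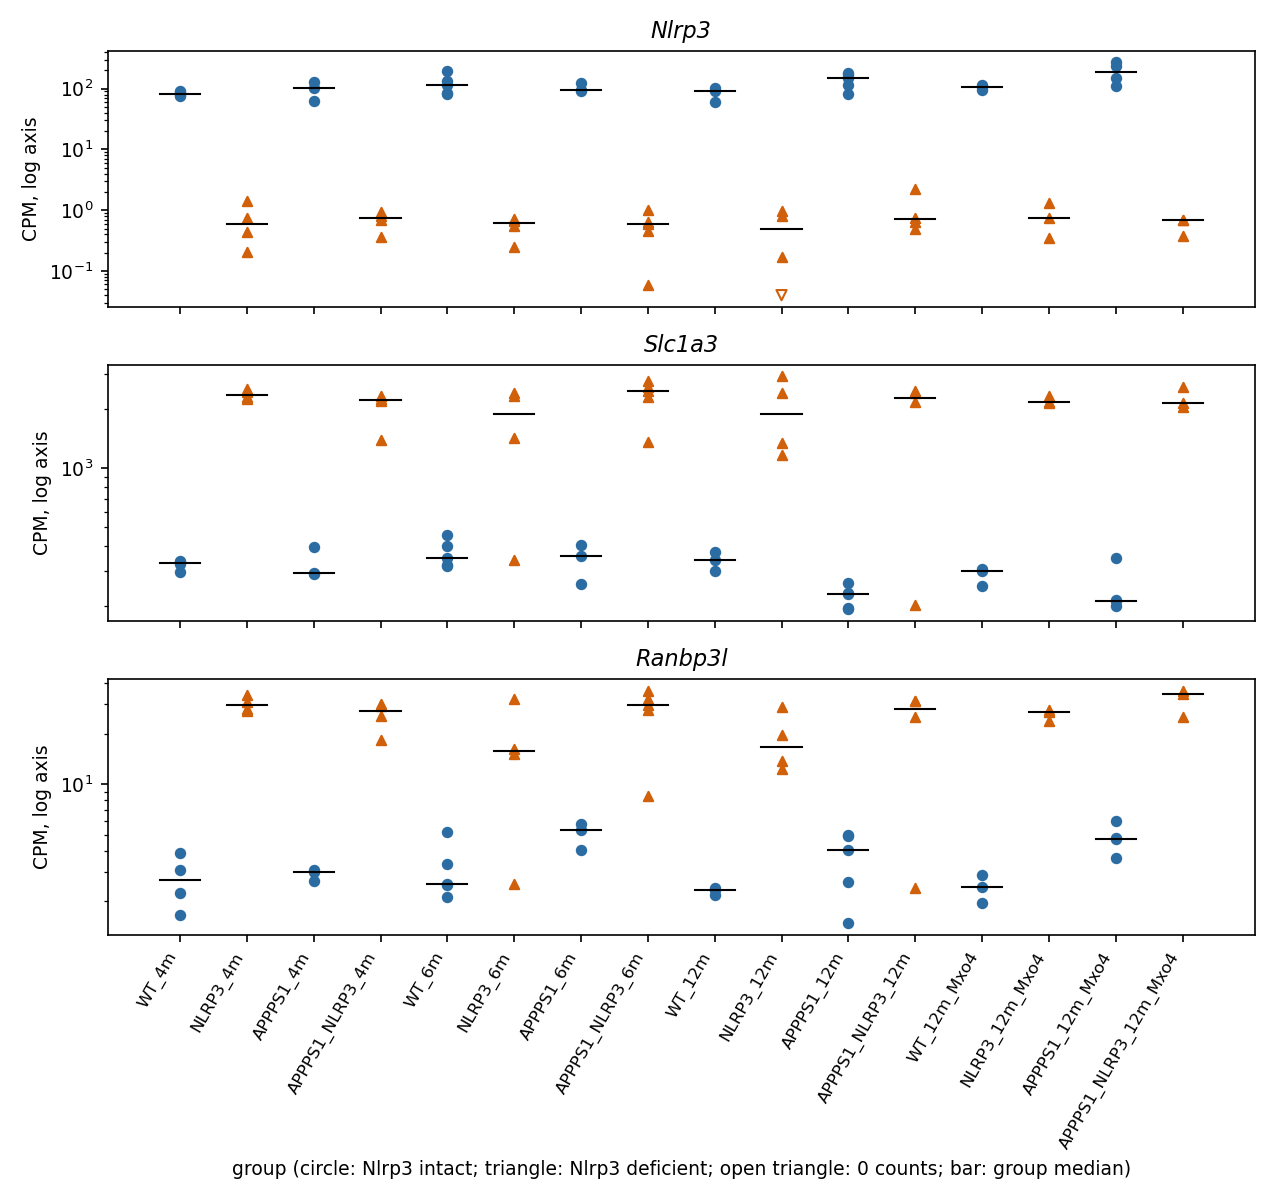
CPM of Nlrp3, Slc1a3 and Ranbp3l on log axes in the libraries of all 16 groups; circles are Nlrp3 intact, triangles deficient, an open triangle marks 0 counts and bars are group medians. The tagged NLRP3_12m_Mxo4 libraries form a tight group for Slc1a3 (2160.2 to 2339.5 CPM), while 2 deficient libraries of other groups lie at the intact level.

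Whether the effect of Nlrp3 loss itself differed from that in other groups was tested by interaction terms. For the difference with the tag minus that in untagged mice at 12 months, 0 genes were called by edgeR, 1537 (7.74%) had an unadjusted p under 0.05, and DESeq2 called 11. The untagged difference in this term is also one between male and female libraries, so the tag's part in it cannot be told apart from sex. Nr1d2 had 1.41 ± 0.31 there (adjusted p = 0.106) and Trim12a 1.05 ± 0.29 (adjusted p = 0.35). For the difference without transgenes minus that on the APPPS1 background, both with the tag, 0 genes were called by edgeR, 817 (4.11%) had an unadjusted p under 0.05, and DESeq2 called 1. Slc1a3 had -0.24 in that term.

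When the 6 libraries were fitted alone, the spread came from those 6 and 78 of 16091 genes were called (0.485%), among them all 20. Of the 58 further genes 56 did not overlap, against 13.9% of the 19865 genes tested over all libraries. They were picked by a fit to these same 6 libraries, so the lack of overlap adds no support. The 58 further genes included Il1b (1.40 ± 0.17, adjusted p = 2.86e-03), Il1a, Tnfaip3, Nfkbiz, Cd83, Egr2 and Nr4a1, all higher, and C5ar2, lower. Across the 7 other comparisons of Nlrp3 loss, each of these named genes ran from below to above 0. Il1b ran from -0.72 to 1.82 (called higher in 2) and Il1a from -0.19 to 1.08 (called higher in 4). Cd83 ran from -0.83 to 0.78 (called lower in 1) and C5ar2 from -0.28 to 0.65 (called higher in 1). Hebp1, a heme-binding protein, had 56.999, 64.9 and 73.7 against 8.84, 5.77 and 5.46 CPM. Cep85, a centrosomal protein, had 91.6, 175 and 90.0 against 14.2, 8.68 and 14.7 CPM. Both missed the threshold in the fit over all libraries (adjusted p = 0.224 and 0.249). Names from this fit were chosen after their values were seen.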

How the data were processed

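The deposited values were whole-number counts per gene in 1 matrix. Per the labels' protocols, RNA was purified with a miRNA easy kit, and SMART-Seq v4 libraries were made in 2 batches and read as pairs on an Illumina HiSeq. Per the submitters' processing notes, Trimmomatic, TopHat and HTSeq were used with mm10, without versions or strand settings given. The kit adds no molecular identifiers, PCR copies are therefore counted, and depth covers counting error only.

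All 62 libraries were fitted in edgeR 4.0.16 (R 4.3.3) with TMM factors and terms for the group and for the second of the numbers in each title, after filterByExpr (minimum count 10, minimum total 15), which kept 19865 of 53801 genes. The SE of a log2 difference is its size over the root of its F value. 1 library with 659 counts, in another group, stayed in the fit and out of ranges. Symbols and positions come from GENCODE vM21 (GRCm38). Sex was read from Xist (at least 100 CPM) and 4 Y-linked genes (at least 50 CPM), both without the TMM factor. DESeq2 1.42.0 was an alternative. 1 called gene is counted in totals and is not reported here. Groups do not overlap where all 3 values of one lie above all 3 of the other.

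Named genes were Nlrp3, a set of 17 genes, up to 15 rises and 15 falls among called genes with at least 5 CPM, called genes within 10 Mb of Nlrp3, up to 4 called members of each of 34 lists, and called genes also called in at least 4 of the 7 other comparisons. Predicted genes and clones fall outside it and were named after their values were seen, as were uncalled list members. Members and lists were chosen with earlier results of these data known. Markers of 12 other cell types were among the lists. Markers of choroid plexus and ependyma, erythroid cells, B cells, neutrophils, T and NK cells, pericytes and smooth muscle, border-associated macrophages, endothelium, oligodendrocytes and neurons had 0 called genes each, and their summed levels overlapped between the groups. The lists of MHC class I and II presentation, phagocytic receptors, cholesterol synthesis, lipid transport and storage, glycolysis, oxidative phosphorylation (nuclear and mitochondrial), proliferation, ribosomal proteins, homeostatic microglia, X-inactivation and Y-linked genes, and unfolded protein and heat shock response had 0 called genes each.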

Additional observations from a re-analysis of the deposited data

Results flagged for a closer look

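5 of 70 sets of 1 gene in 1 group of 4 to 10 libraries had a library far from the others by Dixon's test, which chance gives in about 1 in 20 sets. None lies in the 3 and 3 libraries described here, whose groups are too small for the test. Slc1a3 was 202 CPM in APPPS1_NLRP3_12m replicate 43, against 2161 to 2479 CPM in the other libraries of that group. It was 1393 CPM in APPPS1_NLRP3_4m replicate 13, against 2204 to 2331 CPM. In APPPS1_12m_Mxo4 replicate 56 it was 349.7 CPM, against 198 to 214 CPM, and the same library had Cx3cr1 at 4167 CPM, against 1652 to 1903 CPM. Nlrp3 was 2.27 CPM in APPPS1_NLRP3_12m replicate 49, against 0.492 to 0.758 CPM.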

How the results depend on the processing

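With 20 genes called over all libraries, 33 were called by DESeq2, 78 in the 6 libraries alone with the second title number and 82 without it, 4 among libraries with second title number 1 and 7 among those with number 2. Leaving out 1 library gave 10 to 16 calls: 10 without wild-type replicate 60, 11 without wild-type replicate 61, 11 without NLRP3 replicate 51 and 13 without NLRP3 replicate 50. Nlrp3, Slc1a3, Fam219b, Ranbp3l and Gm37310 were among those called in all 6 of these, and Nlrp3 under every alternative run. Of the 20 called genes, 14 missed the threshold in at least 1 of the 6: without wild-type replicate 60, for example, Smc5, Gclc, Fyn and Gnb4 did. Of the 20, 2 kept their call in all 13 other alternatives: 17 lost it among libraries with second title number 1, 14 among those with number 2, 3 with sex as a term (Igsf10, Rnaset2b and 6030458C11Rik), 2 with the first title number (Nr1d2 and 6030458C11Rik), 2 without the second (Igsf10 and Rnaset2b) and 1 with TMMwsp scaling (Gm14023). The cause was not tested. No paired analysis was possible because no replicate number is shared between groups.

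The term for the tag (0 called) gave 11 calls by DESeq2, 4 without a filter, 13 and 15 in the compared libraries alone with and without the second title number, 1 among libraries with number 1, and 0 to 2 with 1 library left out. The term for the transgene background (0 called) gave 1 by DESeq2, 1 and 1 in the compared libraries alone, and 186 among libraries with number 2; with number 1 it could not be fitted, since APPPS1_NLRP3_12m_Mxo4 has no such library.

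Sign changes were limited to uncalled values. With RLE factors Gsdmd was -0.012 and Tmem119 -0.017; with the stricter filter Tmem119 was -0.0024. With sex as a term Tmem119 was -0.021, Prnp 0.0049, Ddx3y -0.93 and Xist 1.29. Without the second title number P2ry12 was 0.024, and with the first number 0.0042. In the 6 libraries alone P2ry12 was 0.0041 and Prnp 0.015, and, without the second number, Gsdmd -0.0073, P2ry12 0.011 and Tmem119 -0.0049. With number 1 only, Gsdmd was -0.071, P2ry12 0.17, Prnp 0.080 and Tmem119 -0.052. With number 2 only, App was -0.085, Il1rn 0.69 and the median of the disease-associated microglia list 0.11. Without single libraries, Gsdmd ran from -0.045 to 0.033, Tmem119 from -0.057 to 0.055, Prnp from -0.15 to 0.13, Il1rn from -1.04 to 0.23, P2ry12 from -0.25 to 0.024 and Pycard from -0.019 to 0.21. Of 661 checks of single genes, 541 kept direction and side of the threshold.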
